A study of Mus musculus with 32 samples.

Results

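The comparison described here set formalin-fixed, paraffin-embedded (FFPE) mouse kidney against frozen mouse kidney, gene by gene, in the binding of RNA polymerase II (Pol II). Genes were kept when their log2 level reached 4 in at least one of the 2 kidney profiles, which left 16783 of the 27179 genes in the table (61.7%). At that level a gene had about 22.1 reads in FFPE kidney and 30.2 reads in frozen kidney. Just inside this limit stood Gm10684, Gm10851 and Gm10742, each with 31 reads in frozen kidney, and just outside it Gm11529 and Mup14, each with 22 reads in FFPE kidney. Of the 16783 genes, 14006 reached the level in both profiles, 1593 in frozen kidney only and 1184 in FFPE kidney only.

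The series holds 32 chromatin immunoprecipitation (ChIP) libraries of brain, heart, kidney and liver, precipitated with an antibody to the Pol II C-terminal domain or kept as input. For frozen kidney, a tissue core was treated for 30 min with 1% formaldehyde and sheared. FFPE kidney had been kept in 10% formalin and embedded in paraffin, and was deparaffinized and heated at 95 °C for 20 min before shearing, so fixation, sampling and extraction differ together between the groups. The labels give 2 Pol II libraries for each kidney group, made with different library kits on different dates, but the table has 1 unnumbered column per group. The sources used here do not give whether such a column combines the pair of libraries. Strain, age, sex, number of animals and the region of the kidney sampled are not given either. Each column is called a profile below. With 1 profile per side there is no replicate check and no test within kidney. Intervals are exact 95% binomial intervals of the read ratio and cover counting error only, not the spread between animals or libraries.

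Pol II transcribes protein-coding genes, and ChIP reads over a gene rise with the amount of polymerase sitting on it. The kidney is built from nephrons. Podocytes in the glomerulus filter the blood, the proximal tubule takes back most salts, sugars and amino acids and makes glucose, the thick ascending limb takes up sodium chloride, and the distal tubule and collecting duct adjust the final urine. Heat shock genes encode chaperones that fold proteins, and their Pol II load can change within minutes of stress, as can that of the immediate early genes.

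The frozen profile held 1720986 reads in genes and the FFPE profile 1458181. Genes of the mitochondrial genome took 19.2% of the FFPE reads and 7.77% of the frozen reads. The median gene kept here had 50 reads in FFPE and 67 in frozen kidney. Both profiles carried kidney markers. Slc34a1, the sodium phosphate cotransporter of the proximal tubule (chromosome 13, 55399622 to 55414695; all positions on GRCm38.p6), had 263 reads in FFPE and 533 in frozen kidney, and 9 to 64 reads in the 6 profiles of the other organs. Umod, which encodes uromodulin, the protein of the thick ascending limb (chromosome 7, 119462708 to 119479262), had 89 and 280 reads in FFPE and frozen kidney and 12 to 29 in the other organs.

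Most genes had similar levels in the 2 kidney profiles. The median difference, FFPE minus frozen on the log2 scale, was 0.03, and the 5% and 95% quantiles were -0.95 and 0.85. Across genes, which are not independent replicates, the levels correlated with Pearson's r = 0.83. A gene was counted as lower or higher when its difference was at least 1 in size and its read interval did not hold 0. By this rule 740 genes (4.41%) were lower in FFPE kidney and 507 (3.02%) were higher, 12 of the higher ones on the mitochondrial genome. Every gene that passed on size also had an interval without 0, so the interval removed none. A stricter count, with the whole interval beyond 1, left 97 lower and 49 higher genes. An interval that excluded 0 at any size was found for 2200 genes below (13.1%) and 2562 above (15.3%).

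The balance of the counts depended on the scaling, since lower genes were 59.3% of all calls with the deposited totals, 83.0% with raw totals (1230 lower, 252 higher) and 17.6% when the profiles were scaled to olfactory and vomeronasal receptor genes (323 lower, 1516 higher). Raw totals moved the median of all genes by -0.20 and receptor scaling by 0.32. Differences below are on the deposited scale, and list medians whose sign turns are given with the turned value. Each of these scalings shifts every gene by the same amount. A single gene with a deposited difference between 0 and 0.20 is therefore negative with raw totals, and one between -0.32 and 0 is positive with receptor scaling. A gene called lower with a difference above -1.32 is not called with receptor scaling, and one called higher with a difference under 1.20 is not called with raw totals.

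The share of calls varied with the level. A gene with a mean level under 4 was kept only because 1 profile reached 4, so a large difference is built into its choice, and the 346 lower and 198 higher genes among these 1306 are given as a description only. Among the 6175 genes with a mean level of 4 to 5, 4.57% were lower and 3.53% higher, and among the 6038 with a mean level of 5 to 6 these shares were 1.32% and 1.16%. Among the 2737 genes with a mean level of 6 to 7, 0.62% were lower and 0.33% higher. At a mean level of 7 or more, outside the mitochondrial genome, the median difference of 512 genes was 0.15. Of these 512, 15 (2.93%) were lower, against 4.41% of all genes, and none was higher, against 3.02%. These 15 were Hspa1b, Hspa1a, Hsph1, Hspa8, Hsp90ab1 and Dnaja1 of the heat shock group, the gluconeogenic enzyme gene Pck1, the transporter pseudogene Gm6300, the stress gene Gadd45g, the feedback inhibitor of epidermal growth factor signalling Errfi1, the growth factor gene Vegfa, the nuclear noncoding RNA Neat1, the protease gene Plau, the dynein gene Dnah8 and the 45S ribosomal RNA precursor Rn45s, which Pol I transcribes.

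**Figure D1:**
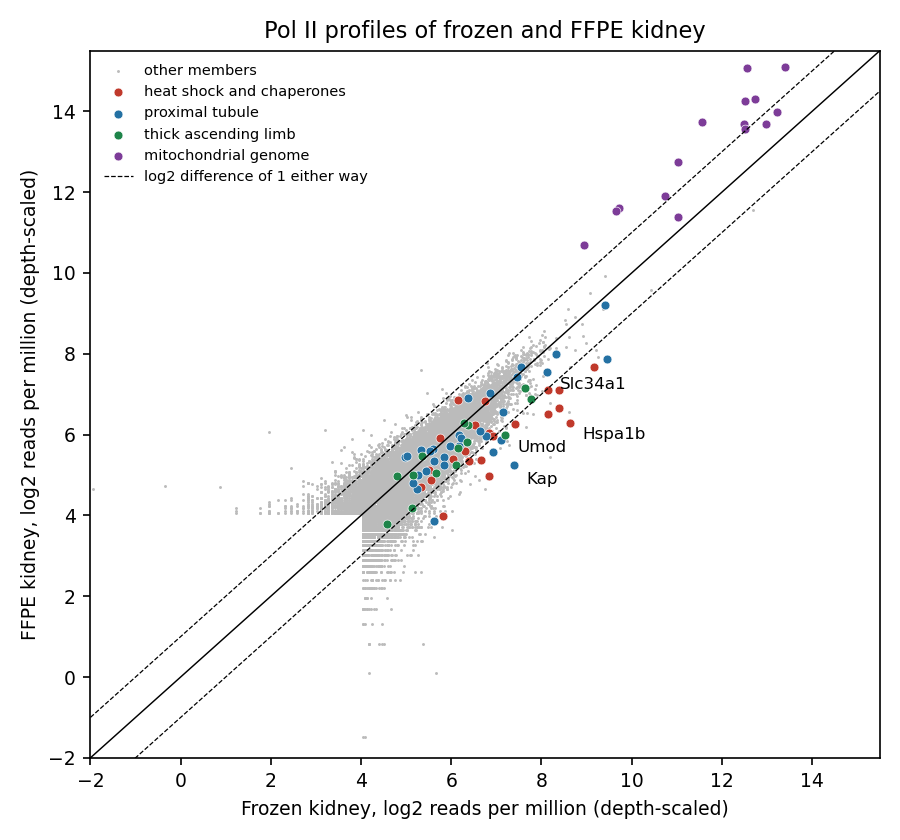
Levels of the 16783 genes in frozen kidney (x axis) and FFPE kidney (y axis), both in log2 CPM of the scaled total; each point is 1 gene, coloured points are 4 gene lists, the solid line marks equal levels and the dashed lines a log2 difference of 1. Heat shock genes such as Hspa1b (6.29 in FFPE, 8.63 in frozen kidney) and Kap (5.25 and 7.40) lie under the lower dashed line, and mitochondrial genes lie above the solid line.

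Heat shock and chaperone genes were the list with the most lower genes. Of 24 genes, 23 reached the level, 11 were lower in FFPE kidney against the background of 4.41%, and none was higher. Their median difference was -0.97, or -1.01 relative to the median of all genes, and it was negative under every scaling run, from -1.18 with raw totals to -0.65 with receptor scaling. Receptor scaling left 6 of the 11 genes lower and counted 1 gene higher.

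Hspa1b, an inducible HSP70 chaperone gene (chromosome 17, 34956429 to 34959238), had 110 reads in FFPE kidney and 758 in frozen kidney, at levels of 6.29 and 8.63. This is a difference of -2.34 (95% interval -2.64 to -2.05), or 5.05-fold lower. In the other organs the FFPE profiles had 92 reads in brain, 95 in heart and 92 in liver, and the frozen profiles 198, 920 and 1133. The FFPE profiles thus lay between 92 and 110 reads in all 4 organs, while the frozen ones ranged from 198 to 1133. Scaled to depth, the FFPE levels ran from 5.51 in brain to 6.91 in heart and the frozen levels from 6.71 in brain to 9.27 in heart, so brain is the frozen profile that falls within the FFPE range. Hspa1a, its near-identical neighbour, had 142 and 646 reads in FFPE and frozen kidney. Reads may be shared between the pair, so their 2 values are not separate evidence. Lsm2, an RNA-processing gene that lies near this pair on chromosome 17 and was picked after its values were seen, had 24 and 111 reads (-1.74, -2.47 to -1.12).

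Further chaperone genes were lower by smaller amounts than Hspa1b. Hspe1, the mitochondrial co-chaperonin HSP10, had 44 reads in FFPE and 219 in frozen kidney (-1.86, -2.37 to -1.40). Hspd1, the HSP60 chaperonin transcribed the other way from the same promoter region, had 92 and 217 reads (-0.79, -1.16 to -0.44). The intervals of these neighbours did not overlap, so their read ratios were unequal beyond counting error. Hsph1, the HSP110 chaperone, had 127 and 546 reads (-1.66, -1.95 to -1.38). Hspa8, the constitutive HSC70 chaperone, had 287 and 1100 reads (-1.49, -1.69 to -1.31), and small nucleolar RNA genes lie within it, of which Snord14c had 11 and 73 reads. Reads over Snord14c also fall within Hspa8, so reads of the 2 genes cannot be told apart there. Hspb1, a small heat shock protein gene, had 22 and 108 reads (-1.83, -2.59 to -1.18).

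The HSP90 genes and their partners stood between. Hsp90ab1 had 193 and 639 reads (-1.28), Hsp90aa1 108 and 327 (-1.15), and the co-chaperone gene Stip1 58 and 192 (-1.28). Dnaja1, a partner of HSP70, was at -1.05 and Cacybp, the calcyclin-binding protein gene, at -1.05. Under receptor scaling Hsp90ab1, Hsp90aa1, Stip1, Cacybp and Dnaja1 came to differences of -0.96 to -0.73, under the size required. Dnajb1 (-0.97) and the co-chaperone gene Bag3 (-0.70) were not counted as lower, although their intervals excluded 0. At the other end, Hspa4 had 161 and 204 reads (0.10), Hspa2 84 and 103 (0.15) and Hspa9, the mitochondrial HSP70, 163 and 136 reads (0.70, 0.37 to 1.04). These 3 chaperone genes were not lower in FFPE kidney.

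**Figure D2:**
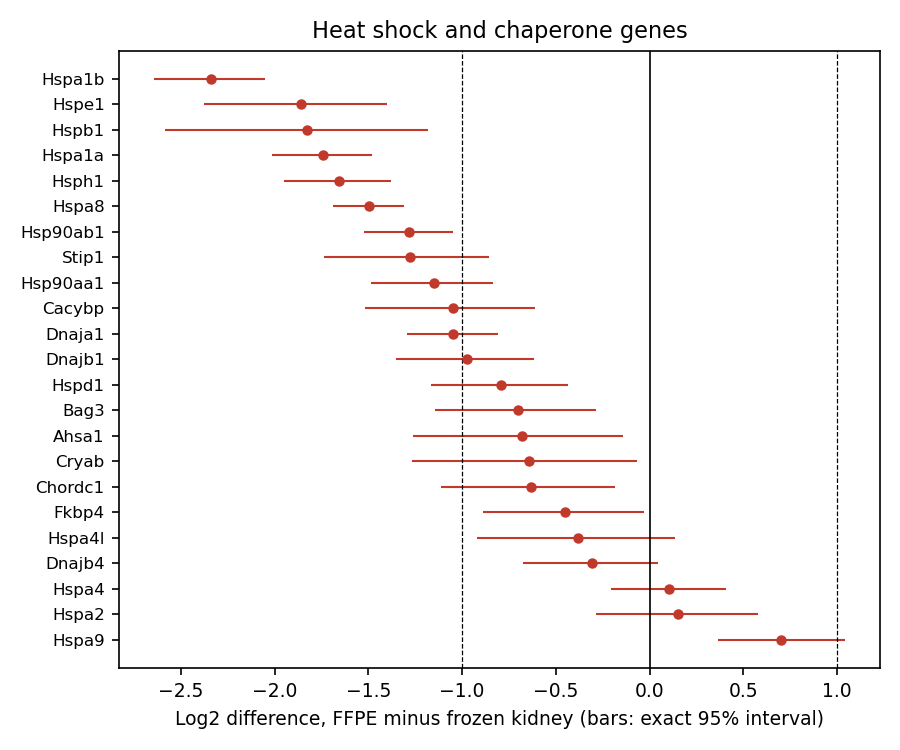
Log2 difference, FFPE minus frozen kidney, of the 23 heat shock and chaperone genes (y axis, 1 gene per line); points are single differences of 1 profile per side, bars are exact 95% intervals for counting error, and dashed lines mark differences of -1 and 1. The genes run from Hspa1b at -2.34 to Hspa9 at 0.70.

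Heat shock factors are known to bind repeated GAA units in alternating direction. The promoters of 3 of the lower genes are shown because each holds at least 1 match of 2 such units. Hspa1b holds 1 match of 2 units and 0 of 3 units. Windows of 250 bases before to 50 bases after the transcript start were taken from RefSeq (GRCm38.p6), in the direction of the gene. Capitals mark matches of GAANNTTC or of TTCNNGAA, each 2 units on either strand.
Hspa1b, chr17:34959189-34959488, minus strand: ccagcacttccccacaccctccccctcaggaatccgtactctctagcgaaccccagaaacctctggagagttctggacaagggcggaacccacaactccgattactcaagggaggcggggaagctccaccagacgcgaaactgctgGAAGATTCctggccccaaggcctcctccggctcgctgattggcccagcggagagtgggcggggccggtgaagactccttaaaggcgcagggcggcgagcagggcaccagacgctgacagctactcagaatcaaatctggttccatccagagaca
Hspe1, chr1:55087898-55088197, plus strand: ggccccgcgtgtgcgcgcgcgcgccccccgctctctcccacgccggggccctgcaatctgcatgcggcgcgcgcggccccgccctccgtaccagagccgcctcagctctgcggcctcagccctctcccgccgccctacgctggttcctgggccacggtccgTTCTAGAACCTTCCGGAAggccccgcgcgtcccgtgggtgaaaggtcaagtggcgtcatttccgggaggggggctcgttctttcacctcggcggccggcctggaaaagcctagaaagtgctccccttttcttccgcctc
Hsph1, chr5:149636287-149636586, minus strand: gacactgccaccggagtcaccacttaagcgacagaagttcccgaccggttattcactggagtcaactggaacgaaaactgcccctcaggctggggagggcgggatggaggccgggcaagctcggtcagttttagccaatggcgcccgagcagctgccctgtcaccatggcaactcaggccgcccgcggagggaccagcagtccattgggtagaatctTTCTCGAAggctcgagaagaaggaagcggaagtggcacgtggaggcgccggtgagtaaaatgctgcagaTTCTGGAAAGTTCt

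A longer match of 3 units, GAANNTTCNNGAA or its reverse complement TTCNNGAANNTTC, stood in the windows of Hspe1 and Hsph1, and each such match holds matches of the shorter motif within it. Windows were found for 19 of the 24 heat shock genes. No window was used for Hspa8, Hsp90aa1, Hsp90ab1, Hspa9 and Cryab. Counting a gene when any of its windows held a match, the 3-unit motif was present in 4 of the 19 genes (21.1%), in 179 of all 27025 genes with a window (0.662%) and in 76 of the 12775 such genes at level (0.595%). The 2-unit motif was present in 12 of the 19 genes (63.2%), in 4587 of all genes with a window (17.0%) and in 1837 of those at level (14.4%). Among the 8 genes with a window that were lower in FFPE kidney, 6 held the 2-unit motif and 2 the 3-unit motif, and among the 11 others 6 and 2 did. The lower genes Cacybp and Stip1 held neither motif. Hspd1 and Hspe1 share overlapping windows and so the same match. A match describes the letters only and is not a measured binding site.

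The proximal tubule list was shifted toward lower values, with a few genes far below the rest. Of 32 genes, 31 reached the level, 5 were lower, against 4.41% of all genes, and none was higher. The interval lay below 0 for 13 of the 31, against 13.1% of all genes. Their median difference was -0.32, which is -0.35 relative to all genes, and it came to -0.00197 under receptor scaling, where 4 genes were lower. In bulk tissue, fewer cells of a type and less polymerase per cell cannot be told apart.

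Kap, an androgen-regulated kidney protein gene (chromosome 6, 133849855 to 133853667), had 53 reads in FFPE and 323 in frozen kidney (-2.15, -2.61 to -1.74). It had 1 to 8 reads in the profiles of the other organs. Slc7a13, an amino acid transporter gene, had 20 and 93 reads (-1.75, -2.55 to -1.07). Pck1, the rate-limiting enzyme of glucose synthesis (chromosome 2, 173153073 to 173159274), had 332 and 1348 reads (-1.58, -1.76 to -1.40), 2.98-fold lower. Keg1, a kidney-expressed gene, had 67 and 231 reads (-1.34) and the water channel gene Aqp1 82 and 262 (-1.23). These were the 5 genes counted as lower, and Aqp1 came to -0.91 under receptor scaling.

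Other transporter and receptor genes of the proximal tubule list were not counted as lower. Slc34a1 was at levels of 7.55 in FFPE and 8.12 in frozen kidney, a difference of -0.58 (-0.80 to -0.36). Lrp2, the endocytic receptor megalin, had 828 and 1301 reads (-0.21, -0.34 to -0.08), and its partner receptor Cubn 241 and 338 reads (-0.04, -0.29 to 0.20). The organic anion transporter gene Slc22a6 was at -0.82 and Slc22a8, of the same family, at 0.05. The bicarbonate transporter gene Slc4a4 was at 0.13 and the endocytic adaptor gene Dab2, with 169 and 157 reads, at 0.55 (0.23 to 0.87). Within this list the differences thus ran from -2.15 to 0.55.

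After these values were seen, genes of the first and the third segment of the proximal tubule and androgen-responsive kidney genes were listed separately. These lists overlap each other and the proximal tubule list, and support nothing on their own. Of 11 third-segment genes, 11 had negative differences and 5 were lower, against 4.41% of all genes, with a median of -0.97. They included Cyp2e1, a drug-metabolizing cytochrome P450 gene, with 24 and 124 reads (-1.90), Cyp7b1, an oxysterol hydroxylase gene, with 16 and 60 (-1.43), the anion transporter gene Slco1a1 with 36 and 115 (-1.22) and Acsm3, a fatty acid ligase gene, with 27 and 85 (-1.19). Of 7 first-segment genes none was lower, and the median was -0.31, or 0.01 under receptor scaling. Of 10 androgen-responsive genes all had intervals below 0, against 13.1% of all genes, and 6 were lower, against 4.41%, with a median of -1.21. Odc1, the rate-limiting enzyme of polyamine synthesis, was among them with 75 and 299 reads (-1.55). Y-linked genes were read in both profiles. Of 5 that reached the level, none was lower and Eif2s3y was higher (46 and 25 reads, 1.31, 0.59 to 2.09), against 3.02% of all genes. Also picked after their values were seen were the steroid dehydrogenase gene Hsd3b2, with 35 and 204 reads (-2.08), and Gm6300, with 133 and 744 reads (-2.04, -2.32 to -1.77).

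Along the rest of the nephron, the list median was negative in the thick ascending limb and positive in the distal segments. Of 14 thick ascending limb genes at level, 1 was lower, a share near that of all genes, and none was under receptor scaling. Intervals lay below 0 for 8, against 13.1% of all genes, and above 0 for none, against 15.3%. The median was -0.51 (-0.54 relative to all genes, and -0.19 under receptor scaling). Umod was at levels of 5.99 in FFPE and 7.19 in frozen kidney, a difference of -1.21 (-1.57 to -0.86), which came to -0.89 under receptor scaling. Slc12a1, the sodium potassium chloride cotransporter that loop diuretics block, had 166 and 417 reads (-0.88, -1.15 to -0.62), and Bsnd, a chloride channel subunit gene, 53 and 131 (-0.85). The potassium channel gene Kcnj1, with 106 and 159 reads, was at -0.14 (-0.51 to 0.22).

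In the distal convoluted and connecting tubule none of the 12 genes at level was lower or higher, against 4.41% and 3.02% of all genes. The median was 0.15, which turned to -0.06 with raw totals. Slc12a3, the thiazide-sensitive cotransporter, had 180 and 183 reads (0.42, 0.11 to 0.72), and the calcium exchanger gene Slc8a1 408 and 417 (0.41). Collecting duct principal cell genes had a median of 0.24 and intercalated cell genes one of 0.30, positive under every scaling run. In these 2 lists Aqp4 (40 and 111 reads, -1.02) and the proton pump gene Atp6v1g3 (9 and 34 reads, -1.42) were lower. They were 1 of 13 and 1 of 15 genes at level, against 4.41% of all genes. Hsd11b2, which inactivates glucocorticoids in principal cells, had 99 and 80 reads (0.75, 0.31 to 1.19), and the ammonia transporter gene Rhbg 44 and 30 (0.99, 0.29 to 1.72). The water channel gene Aqp2 had 42 and 45 reads (0.34, -0.30 to 0.98), an interval that holds 0.

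Podocyte genes had a median of -0.21, which turned to 0.10 under receptor scaling. Of 15 at level, 2 were lower, against 4.41% of all genes, and none was under receptor scaling. The 2 included the transcription factor gene Tcf21 (14 and 45 reads, -1.21). The slit diaphragm gene Nphs1 had 44 and 66 reads (-0.14, -0.73 to 0.43), an interval that holds 0. Of the transcription factor genes of the kidney lineage, 0 of 20 were lower or higher, against 4.41% and 3.02% of all genes. Hnf4a, a regulator of proximal tubule genes, had 210 and 454 reads (-0.67, -0.91 to -0.43), and Esrrg 111 and 104 (0.54, 0.14 to 0.94).

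**Figure D3:**
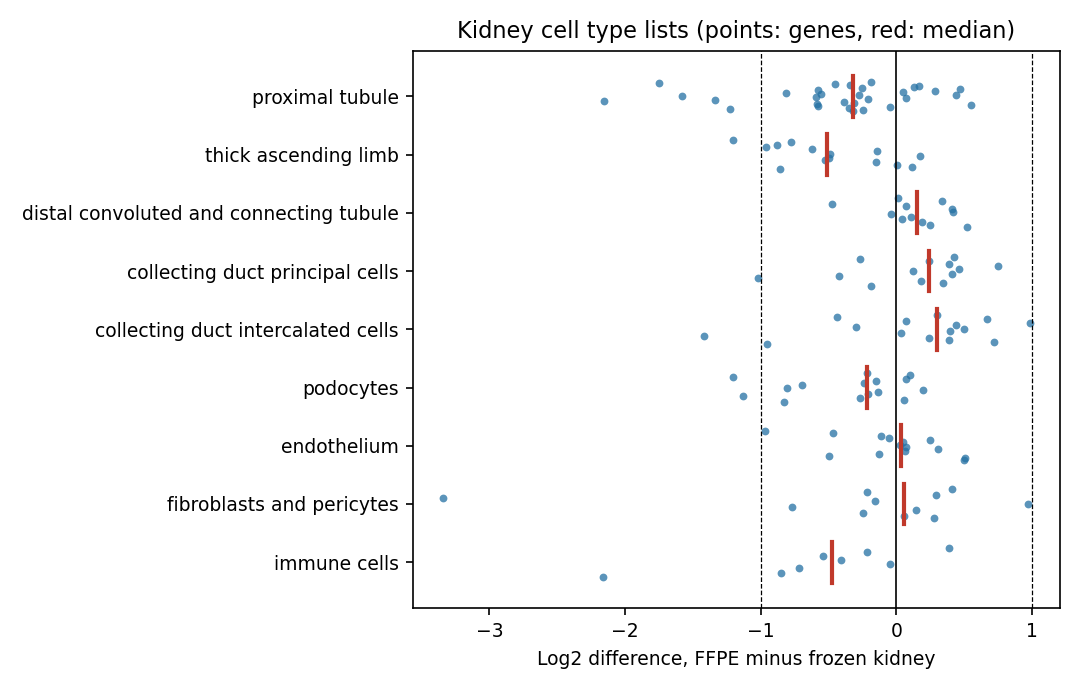
Log2 difference, FFPE minus frozen kidney (x axis), of genes at level in 9 cell type lists (y axis); blue points are genes, red bars list medians, and dashed lines mark -1 and 1. The medians run from -0.51 in the thick ascending limb and -0.48 in immune cells to 0.30 in intercalated cells, and the immune cell and fibroblast lists each hold 1 gene far below the rest.

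Genes of other cell types gave these values beside the tubule results, and their part in those results was not tested. Over all genes 4.41% were lower and 3.02% higher. Endothelial genes (14 at level) had a median of 0.04 and fibroblast and pericyte genes (11) one of 0.05, each turning negative with raw totals (-0.17 and -0.15), and the only lower gene was the matrix gene Lum, with 2 and 34 reads (-3.34, -6.75 to -1.68). Of 16 immune cell genes 8 reached the level, the complement gene C1qa was lower (5 and 33 reads), and the summed level (CPM, counts scaled to depth) was 269 in FFPE and 335 in frozen kidney. Of 15 heart and skeletal muscle genes 7 reached the level, and all 7 had negative differences. Of these, 5 had intervals below 0, against 13.1% of all genes, with a median of -0.63 (-0.31 under receptor scaling). Among them the myosin gene Myh1 was lower (22 and 96 reads, -1.66), and the list summed to 818 CPM in FFPE and 1072 in frozen kidney. Of 18 hepatocyte genes 11 reached the level and 2 were lower, against 4.41% of all genes. The 2 were Cyp2e1, which the third segment also expresses, and the serum protein gene Serpina1a (8 and 36 reads, -1.66). The hepatocyte list had a median of -0.27 that turned to 0.05 under receptor scaling, and sums of 322 and 412 CPM. Neuronal genes summed to 306 and 335 CPM, and none of 9 at level was lower. Genes of the adrenal cortex and medulla, a gland beside the kidney, reached the level in 5 of 10 cases and summed to 213 CPM in FFPE and 154 in frozen kidney, with Star, the cholesterol carrier of steroid synthesis, at 112 and 78 reads (0.96, 0.53 to 1.40). Smooth muscle genes (6 at level) had a median of 0.16 that turned to -0.04 with raw totals, and held 1 higher gene, Des (35 and 23 reads, 1.04), which was not called with raw totals (0.83) or with added reads in proportion to depth (0.98). No gene of the erythroid and adipocyte lists was lower or higher. Of all the genes in the cell type lists, 1 had 0 reads in FFPE kidney, the globin gene Hba-a1, with 6 in frozen kidney.

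Among genes of acute responses, single genes were lower. Of 25 immediate early genes at level, 1 was lower, the matrix signalling gene Ccn2, with 103 and 284 reads (-1.02, -1.36 to -0.69), a share near the 4.41% of all genes, and the list median of -0.28 turned to 0.04 under receptor scaling. Dusp1, a phosphatase gene of this list, had 177 and 457 reads (-0.92, -1.18 to -0.67), and Nr4a1 85 and 80 (0.53, 0.07 to 0.99). Of 16 glucocorticoid and FoxO targets at level, 3 were lower, against 4.41% of all genes. Gadd45g had 128 and 432 reads (-1.31), Errfi1, which overlaps 1700045H11Rik, 385 and 1126 (-1.10) and Depp1 36 and 111 (-1.17). Per1, of the same list, had 376 and 403 (0.34, 0.14 to 0.55). The hypoxia genes Ankrd37 (16 and 82 reads, -1.88) and Vegfa (130 and 371, -1.07) were lower among 22, against 4.41% of all genes. The median of that list was -0.21 (0.11 under receptor scaling). In the unfolded protein and amino acid stress list Sdf2l1 (10 and 51 reads, -1.85) and Ddit3 (19 and 55, -1.07) were lower of 19, against the same 4.41%. Mt2, a metallothionein gene, had 18 and 77 reads (-1.62) and Mt1 39 and 66 (-0.31, -0.93 to 0.28). Of 8 kidney injury genes at level, Hmox1 (15 and 60 reads, -1.52) and Krt8 (19 and 65, -1.31) were lower and Krt20 (25 and 16, 1.07) was higher. Over all genes 4.41% were lower and 3.02% higher. With receptor scaling Ccn2, Gadd45g, Errfi1, Depp1, Vegfa, Ddit3 and Krt8 were not called (-0.99 to -0.70), and with raw totals Krt20 was not (0.87).

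Of 8 small RNA genes at level, 4 were lower, against 4.41% of all genes, with a median of -0.98. Rnu1a1, a U1 spliceosomal RNA gene that lies within Tex14, had 17 reads in FFPE and 123 in frozen kidney (-2.38, -3.24 to -1.67), and Rnu2-10, a U2 gene, 26 and 107 (-1.58). Rn7sk, which Pol III transcribes, had 23 and 38 reads (-0.27, -1.10 to 0.50). Replication-dependent histone genes had a median of -0.50. Of 13 at level, 2 were lower, against 4.41% of all genes, namely H4c4 (14 and 57 reads, -1.54) and H4c9 (-1.04). Neat1, the RNA that builds paraspeckles (chromosome 19, 5824708 to 5845480), had 342 and 1177 reads (-1.34, -1.52 to -1.17), and Malat1, its neighbour, 1078 and 2639 (-0.85, -0.95 to -0.75). Kcnq1ot1, an imprinted noncoding RNA, had 1361 and 1299 (0.51, 0.40 to 0.62), so the 3 intervals of Neat1, Malat1 and Kcnq1ot1 did not overlap. By gene span, 7.44% of the 3253 shortest genes and 2.89% of the 3252 longest were lower, and 4.70% and 1.05% were higher. By CpG count in the promoter window, 8.45% of the 2815 genes with the fewest and 2.78% of the 2336 with the most were lower. The shares of higher genes by CpG count were 4.55% and 1.67%. Calls in both directions were thus more frequent among short and CpG-poor genes. The median differences were -0.004 and 0.04 by span and -0.04 and 0.08 by CpG count. Median frozen reads were 52 in the shortest and 93 in the longest genes, and 49 and 90 by CpG count. Span and CpG count thus each move together with read depth here.

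Few metabolic and housekeeping genes were lower or higher. At the shares of all genes (4.41% lower, 3.02% higher), lists of this length would also hold few. Of 29 cytosolic ribosomal protein genes none was lower or higher, with a median of 0.03 that turned to -0.17 with raw totals. Nuclear genes of oxidative phosphorylation had a median of -0.06 (0.26 under receptor scaling), with Cox5a lower (-1.08) and Cox6c higher (1.04) of 22. Of 17 circadian clock genes none was lower or higher, with Hlf at 0.91 (107 and 77 reads, 0.48 to 1.36). Among 15 housekeeping genes Hprt was lower (6 and 41 reads, -2.23), while Actb was at -0.69 and Gapdh at 0.16.

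The mitochondrial genome was the list with the largest positive values. It is transcribed by its own polymerase, not by Pol II. Of its 15 genes at level, 12 were higher in FFPE kidney, against 2.95% of the genes outside it, and all 15 had intervals above 0. With raw totals 9 were higher, without ATP6, ND1 and mt-Rnr1, and with receptor scaling 14. The excess was uneven along the molecule. ND2, a subunit of respiratory complex I, had 48342 reads in FFPE and 11550 in frozen kidney (2.51, 2.48 to 2.54), and ND6, of the same complex, 19243 and 5821 (2.17). COX3, a subunit of complex IV, had 3792 and 3996 (0.37, 0.30 to 0.43), and COX1 18442 and 15507 (0.69). The intervals of ND2 and COX3 did not overlap, so the read ratios were unequal along the genome beyond counting error. The ND2 difference was 2.34 in heart, 0.55 in liver and 0.33 in brain. ND2 had the largest kidney difference of the list, and the list median was 1.70 in kidney, 1.24 in heart, -0.07 in liver and -0.01 in brain.

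Outside the mitochondrial genome, the 12 lowest and 12 highest genes with at least 50 reads in their higher profile were mostly single genes of low level or members of near-identical families. The lowest, after 2 entries without a position in the gene table, were 1600014C10Rik, which overlaps D530033B14Rik (61 and 555 reads, -2.73, -3.15 to -2.36), the volume-regulated channel subunit gene Lrrc8b (8 and 76, -2.73), Mrgpra3, a sensory receptor gene (8 and 70, -2.61), and Apol11b (7 and 55, -2.45). The 2 entries were Gm17584, with 2 and 79 reads (-4.55, -7.93 to -2.96), and an entry known only by the Entrez number 100504560, with 1 and 96 reads. Fam131c, Tecrl, Crhr2, Rnu1a1, Hspa1b and Snord14c, from -2.38 to -2.20, complete the lowest 12. Among the highest, which hold 4 entries without a symbol, were the entry 100862032 (94 and 7 reads, 4.10, 3.09 to 5.54), the entry 100862038 (271 and 77 reads, 2.25), Tmem254a (97 and 17, 2.92), Sprr2a2, a skin barrier protein gene (50 and 10, 2.71), Tmem254c (83 and 26, 2.10) and Sprr2a1 (73 and 23, 2.09). Tmem254a and Tmem254c, and likewise Sprr2a1 and Sprr2a2, are near-identical copies, whose reads the counting could split, so their values are uncertain. The interferon-induced gene Ifit3 had 66 and 26 reads (1.77, 1.11 to 2.50), and Zfp993 56 and 19 (1.98) over a span that overlaps many other genes.

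To see whether these differences were particular to kidney, the FFPE minus frozen difference of kidney was set against those of brain, heart and liver with limma. This test has 1 kidney value against 3 and assumes that kidney varies like the other organs. No gene of 26758 passed a Benjamini-Hochberg adjusted p under 0.05 (0%, smallest adjusted p = 0.9998). An unadjusted limma p under 0.05 was found for 1026 genes, 607 of them among the 16783. Both counts are under the share of 0.05 due when no gene differs. Hspa1b differed from the other organs by -0.28 ± 0.50 (SE), Umod by -1.50 ± 0.72 and Slc34a1 by -0.20 ± 0.57, each with a limma adjusted p of 0.9998. The smallest unadjusted p among the 16783 belonged to Gm6300, at -2.33 ± 0.50, whose differences were -2.04 in kidney, 0.09 in brain, 0.88 in heart and -0.08 in liver. When liver was left out, the fit had 1 residual degree of freedom and an infinite prior, so that its p-values rest on the spread pooled over all genes. Under that fit 3 genes passed, all lower, namely Gm6300 (133 and 744 reads in FFPE and frozen kidney, limma adjusted p = 0.00114), Csf2rb2 (13 and 68, adjusted p = 0.0206) and Rbp4 (3 and 29, adjusted p = 0.0206, under the level used here). They were named after their values were seen.

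The same differences in the other organs are given beside those of kidney. Hspe1 was at -1.13 in brain, -2.23 in heart and -2.51 in liver, and Hsph1 at -1.10, -2.33 and -1.81. Hspa8 was at -0.58, -1.78 and -3.56. The medians of the heat shock list were -0.59 in brain, -1.51 in heart and -1.54 in liver, and those of the thick ascending limb list -0.03, 0.12 and 0.47. Umod was at 0.35 in brain, -0.33 in heart and 0.86 in liver, on 12 to 29 reads, and Slc12a1 at 0.25, 1.00 and 0.39. Pck1, which liver also uses for glucose synthesis, was at -2.90 in liver with 438 and 6594 reads, and at -0.53 in brain and 0.15 in heart on at most 38 reads. Neat1 was at -3.46 in liver, -1.32 in heart and -0.23 in brain.

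**Figure D4:**
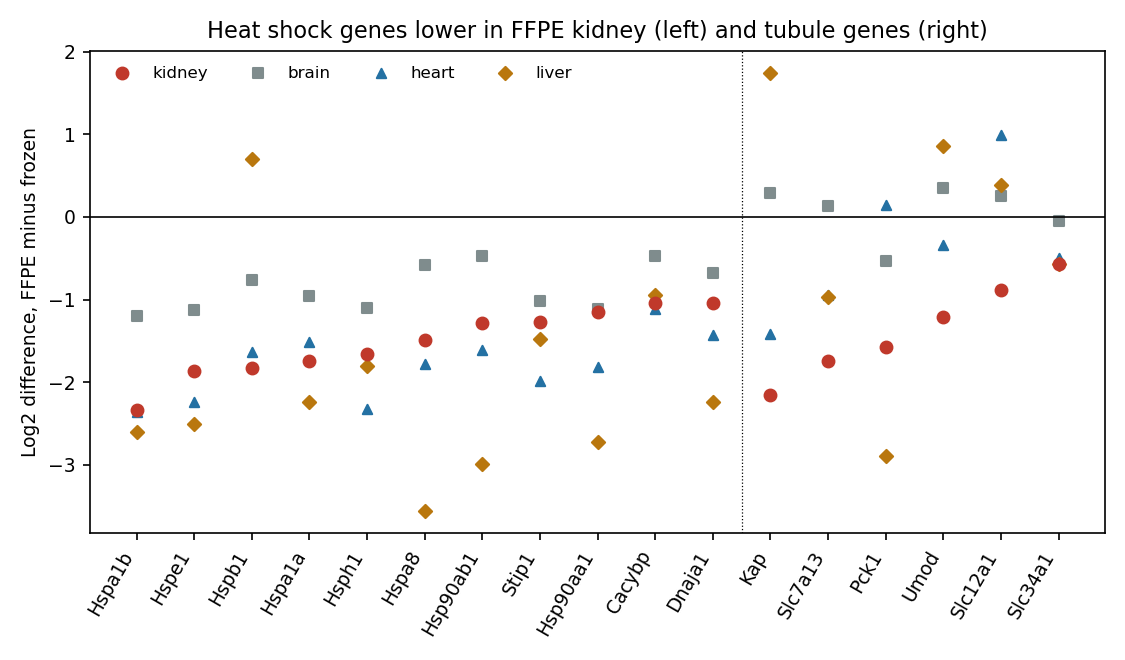
Log2 difference, FFPE minus frozen (y axis), in kidney, brain, heart and liver for the 11 heat shock genes lower in kidney and 6 tubule genes (x axis); each point is 1 profile per side. All heat shock points lie under 0 except Hspb1 in liver at 0.70, and Umod lies at -1.21 in kidney and between -0.33 and 0.86 elsewhere.

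Of the 740 genes lower in kidney, 81 (10.9%) were at or under -1 in brain, 142 (19.2%) in heart and 137 (18.5%) in liver. Over all genes outside the mitochondrial genome these shares were 2.66%, 7.03% and 11.6%. The same 740 genes were also at or above 1 more often than all genes. Their shares were 3.11% in brain, 10.8% in heart and 14.1% in liver, against 1.97%, 5.80% and 8.03%. Of the 740, 346 had a mean level under 4 and 282 one of 4 to 5, so many rest on few reads. In all 3 other organs as well, 27 of the 740 genes (3.65%) were at or under -1, against 62 of all 16768 genes (0.37%). They included Hspa1b, Hsph1, Hspe1, Hsp90aa1 and Stip1, the small RNA genes Rnu1a1, Rnu2-10 and Rnu11, Mt2, Ddit3 and the histone genes H4c4 and H3f3a. The 27 also hold entries with few reads in FFPE kidney, such as Gm4303, Gm17522 and Gm17584 (2 reads each) and 100504560 (1 read). Of the 495 genes higher in kidney outside the mitochondrial genome (2.95%), 10.9% were at or above 1 in brain, 12.5% in heart and 19.6% in liver, where the shares of all genes were 1.97%, 5.80% and 8.03%. At or under -1 were 4.04% of the 495 in brain, 9.70% in heart and 7.27% in liver. In the other 3 organs together 14 of the 495 were at or above 1 (2.83%), against 24 of all genes (0.14%). The 14 include Tmem254a, Sprr2a1, Sprr2a2, Cphx1 and Cphx3, which are members of near-identical families, and Trim5. The 4 comparisons use separate profiles, and the kidney difference correlated across 16768 genes with that of brain at r = 0.12, of heart at r = 0.09 and of liver at r = 0.09. Many of these genes rest on few reads, and they are not independent of each other.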

How the data were processed

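Pol II ChIP-seq of mouse organs was analysed from 1 table that lists 27179 genes, with 8 columns for the organs in each preservation. The submitters' processing notes name Bowtie2, mm10, featureCounts and limma, without versions. The log2 values deposited by the authors follow the voom scale of limma, in which 0.5 reads are added to a count before division by the scaled total of the library. Taking a column's lowest value as 0 reads returned whole reads for all values within a relative tolerance of 1e-06. Because 0.5 reads are added at either depth, 0 reads in both kidney profiles gives a difference of 0.44. Whether reads were counted by strand, or over exons or whole genes, is not given, so levels are not compared between genes.

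Differences are FFPE minus frozen with exact binomial 95% intervals (scipy 1.17.1), given the scaled totals; PCR duplicates are not known, so they cover counting error only. Kidney was set against the mean of brain, heart and liver with limma 3.58.1 (R 4.3.3; trended empirical Bayes, 2 residual degrees of freedom, prior 15.8, Benjamini-Hochberg over 26758 genes with log2 of at least 0 in at least 2 profiles). The code of both steps was checked on simulated data. The simulations held counting error only for the intervals, and for limma changes larger than most seen here. They do not show how either step performs on these data. The members and the 33 gene lists were chosen with earlier results of these data known, and 4 lists were added after values were seen. Named genes are the 3 markers, the 12 lowest and 12 highest outside the mitochondrial genome with at least 50 reads, up to 3 largest and 2 smallest differences per list (more where a list is described in full), and up to 10 genes passing against the other organs; others are said to be picked later. Positions matched by Entrez number for 25275 genes (93.0%), and promoter windows came from RefSeq on GRCm38.p6. Alternatives for scaling, added reads, level and rule were run. Input libraries were not used here, and some genes are not reported here.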

Additional observations from a re-analysis of the deposited data

How the results depend on the processing

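No paired analysis was possible because the columns carry no replicate number and kidney has 1 profile per side. The count of lower genes, 740, was 1230 with raw totals, 323 scaled to receptor genes, 1323 at a level of at least 3, 263 at a level of at least 5, 394 at a mean level of at least 4, 1596 with no level filter and 97 with the whole interval beyond 1. The count of higher genes, 507, was 252, 1516, 817, 214, 309, 970 and 49 in the same order. Both counts stayed within 1.5 times (657 to 794 lower, 419 to 503 higher) under the further changes of scaling and added reads. These were totals without mitochondrial genes, centring on the median gene, median-of-ratios size factors and added reads in proportion to depth. Size alone gave the same 740 and 507, since the interval removed no gene. List medians moved with the scaling: proximal tubule -0.52 with raw totals and -0.00197 scaled to receptor genes, thick ascending limb -0.71 and -0.19, heat shock genes -1.18 and -0.65, and -0.88 with no level filter. Of the 95 named genes counted as lower or higher, 71 still were when scaled to receptor genes and 89 with raw totals. None could change sign under these scalings, since they shift every gene by 0.32 or -0.20 and a call needs a size of 1. Against the other organs, leaving out each in turn gave 0 to 3 lower genes (3 without liver) and 0 higher genes; each other setting gave 0. Depth limits the low genes most: at the level of 4 a gene rests on 22.1 and 30.2 reads.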
